A study of Mus musculus with 4 samples.

Results

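The genes described here are 8 members of the lipid-sensing nuclear receptor system: the receptors Pparg, Ppard, Rxra, Rxrb, Nr1h2 and Nr1h3 and the corepressors Ncor1 and Nrip1. They were chosen by name, from 21951 protein-coding genes of the annotation. A peak was counted for a gene when the deposited list named that gene for it and did not mark it as antisense. By that rule the genes held 36 peaks, 8 of 13536 sense peaks in replicate 1 and 28 of 19568 in replicate 2. The study sequenced RNA from mouse bone-marrow-derived macrophages (BMDMs) after immunoprecipitation of IGF2BP2, which binds RNA and is known to recognise N6-methyladenosine. It has 2 immunoprecipitates (replicates 1 and 2) and 2 inputs, of which the inputs were not analysed here. The labels give no strain, genotype, age, culture time or stimulus, and do not say whether the replicates are separate cultures. They name an antibody to IGF2BP2 in one field and a Flag antibody in another, so it is not settled whether the endogenous or a tagged protein was precipitated.

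Nuclear receptors are transcription factors that bind small lipophilic ligands. PPARG and PPARD are sensors of fatty acids, and the liver X receptors, LXRα (Nr1h3) and LXRβ (Nr1h2), are sensors of oxysterols. Each of them binds DNA as a heterodimer with a retinoid X receptor, such as RXRα (Rxra) or RXRβ (Rxrb). Without an activating ligand many of these dimers hold NCoR1, a scaffold that brings the histone deacetylase HDAC3 to chromatin, whereas NRIP1 (also RIP140) is a corepressor that docks on ligand-bound receptors. In macrophages the pathway controls lipid uptake, storage and cholesterol efflux, and PPARG is known for its part in the alternative, interleukin-4-driven state.

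Of the 36 peaks, 12 touched an exon of the transcript used for the gene. The stretches below are 6 coding stretches of Ncor1, Rxra and Rxrb under such peaks, shown for the exon that peaks of both libraries covered and for GGAC, read from the GENCODE M21 transcripts on GRCm38, 5′ to 3′ on the RNA strand with T for U. In the line for exon 11 of Ncor1, capitals mark the 45 nt covered by a peak in both libraries. In the other lines capitals mark GGAC, a core form of the site at which N6-methyladenosine is placed. The line for Rxra is shown as one without it. The peak on exon 20 of Ncor1 (352 nt, 2 GGAC) and that in the 5′ UTR of Pparg are not printed. Also not printed are the stretches on exons 15, 19 and 40 of Ncor1 (124, 127 and 201 nt), which hold no GGAC.
Ncor1 exon 11, chr11:62395138-62395228, minus strand: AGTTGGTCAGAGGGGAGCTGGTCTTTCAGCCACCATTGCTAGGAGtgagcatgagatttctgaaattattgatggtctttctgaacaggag
Ncor1 exon 10, chr11:62398265-62398407, minus strand: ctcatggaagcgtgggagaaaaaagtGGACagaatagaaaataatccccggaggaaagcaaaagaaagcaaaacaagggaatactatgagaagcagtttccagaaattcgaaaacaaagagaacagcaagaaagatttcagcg
Ncor1 exon 28, chr11:62349367-62349493, minus strand: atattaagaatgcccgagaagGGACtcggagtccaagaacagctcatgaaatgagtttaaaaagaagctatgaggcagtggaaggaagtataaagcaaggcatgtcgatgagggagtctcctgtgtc
Rxrb exon 8, chr17:34036861-34036964, plus strand: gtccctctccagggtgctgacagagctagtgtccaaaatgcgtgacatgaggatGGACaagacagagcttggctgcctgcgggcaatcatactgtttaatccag
Rxrb exon 5, chr17:34035654-34035826, plus strand: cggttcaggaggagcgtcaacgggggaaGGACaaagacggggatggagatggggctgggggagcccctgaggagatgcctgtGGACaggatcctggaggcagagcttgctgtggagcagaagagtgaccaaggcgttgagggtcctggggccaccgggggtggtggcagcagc
Rxra exon 7, chr2:27754223-27754355, plus strand: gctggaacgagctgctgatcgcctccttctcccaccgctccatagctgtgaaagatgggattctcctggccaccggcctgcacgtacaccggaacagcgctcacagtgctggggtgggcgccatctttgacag

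A peak value here is a tag count, the number of sequenced tags within the peak, with a lowest deposited value of 3. The lists hold no input value, enrichment or p-value, so a peak can reflect binding or abundance, and a gene without a peak was not detected above the calling limit rather than shown to be unbound. Tags in nuclear peaks summed to 171430 in replicate 1 and 308880 in replicate 2. The size of the libraries is unknown. In bulk RNA, a transcript present in few cells and one at a low level in all cells cannot be told apart. Of 8 macrophage markers, 6 had a sense peak, with 1515 and 2494 tags in all, led by Csf1r (932 and 1421) and Adgre1 (421 and 661), whereas Lyz2 and Cd14 had none. Markers of other cells were sparse. Of 6 neutrophil markers 2 had a peak, with 77 and 149 tags, mostly from Csf3r, and S100a8, S100a9 and Ly6g had none. Of 5 T cell markers 1 did (3 tags in replicate 1), and of 6 stromal and adipocyte markers 1 (Col1a2, 9 tags in replicate 1), with none for Adipoq. The lists for B cells, erythroid cells, and dendritic or mast cells, of 4 genes each, had none. Their part in the results below was not tested.

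Peaks were found in 5 of the 8 genes in replicate 1, where 22.0% of protein-coding genes had one. In replicate 2 peaks were found in 7 of the 8, beside 26.7%. Both libraries had peaks in Pparg, Rxra, Rxrb, Ncor1 and Nrip1, 5 of 8 genes beside 17.0% of protein-coding genes. Ppard and Nr1h3 had peaks in replicate 2 alone, and Nr1h2 had none in either. Overlap between the libraries (1 bp or more, same strand) was found in 2 of the 8 genes, Pparg and Ncor1, beside 9.07% of protein-coding genes. Per peak, 2 of the 8 member peaks of replicate 1 and 2 of the 28 of replicate 2 overlapped, where 34.8% and 23.6% of all peaks did. Among peaks with the members' range of tags, 1 of 6 and 2 of 21 mainly intronic member peaks overlapped, beside 14.9% and 13.1% of all such peaks. For coding-sequence peaks it was 1 of 2 and 0 of 6, beside 38.3% and 28.8%. The members were chosen with results of these data known, so these shares are descriptions, without a test. With the stronger 50% of each list Pparg alone kept a peak in both libraries (1 of 8).

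The member peaks held 4 to 13 tags in replicate 1 (median 6.5, beside 8.0 over all sense peaks). In replicate 2 they held 5 to 22 tags (median 8.5, beside 9.0). In tags the genes were unequal between the libraries, with 57 tags in replicate 1 and 257 in replicate 2, a ratio of 4.51, where all nuclear peaks gave 1.80. For the 3739 genes of that class found in both libraries, the median ratio of replicate 2 to replicate 1 was 1.62, with quartiles of 1.00 and 2.55.

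**Figure D1:**
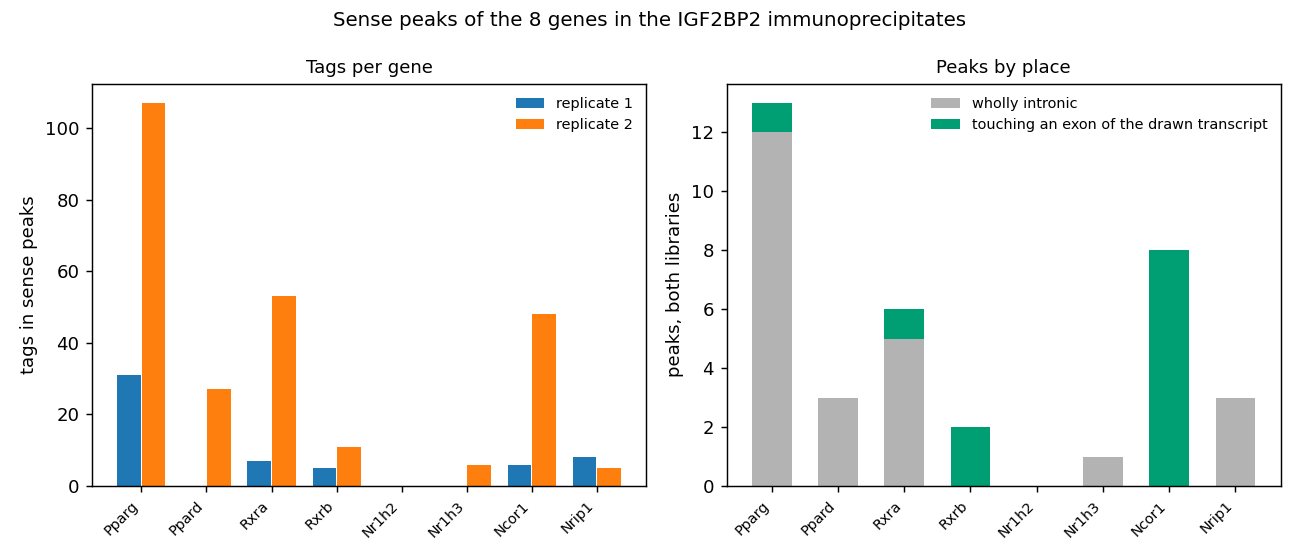
Left, tags in sense peaks of each gene (linear axis) in replicate 1 (blue) and replicate 2 (orange), 1 library each. Right, number of peaks of both libraries wholly within introns (grey) or touching an exon (green) of the transcript used. Pparg had the most tags in each library (31 and 107), and every peak of Ncor1 and Rxrb touched an exon.

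The members differed in where their peaks lay. Of the 36 peaks, 24 lay wholly in introns and 12 touched an exon of the transcript used, which was the coding transcript of longest span with an agreed coding sequence (CCDS). Introns covered most of 27 of the 36 peaks (75.0%), by the deposited region shares, beside 39.6% of all sense peaks. The share was 75.0% in each library (6 of 8 and 21 of 28), where all sense peaks gave 37.7% and 40.8%. Clopper-Pearson 95% intervals were 34.9 to 96.8% in replicate 1 and 55.1 to 89.3% in replicate 2, and cover counting error only. Peaks of 1 gene share a transcript and are not independent, which these intervals do not cover. No member peak was assigned mainly to a 3′ UTR, 0 of 8 in replicate 1 and 0 of 28 in replicate 2. With the same limit, these counts allow shares of up to 36.9% and 12.3%. Among all sense peaks 12.4% and 11.7% were assigned so. The peaks wholly in introns were those of Pparg (12), Rxra (5), Ppard (3), Nrip1 (3) and Nr1h3 (1), whereas Ncor1, the gene of longest span, had none wholly in an intron.

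**Figure D2:**
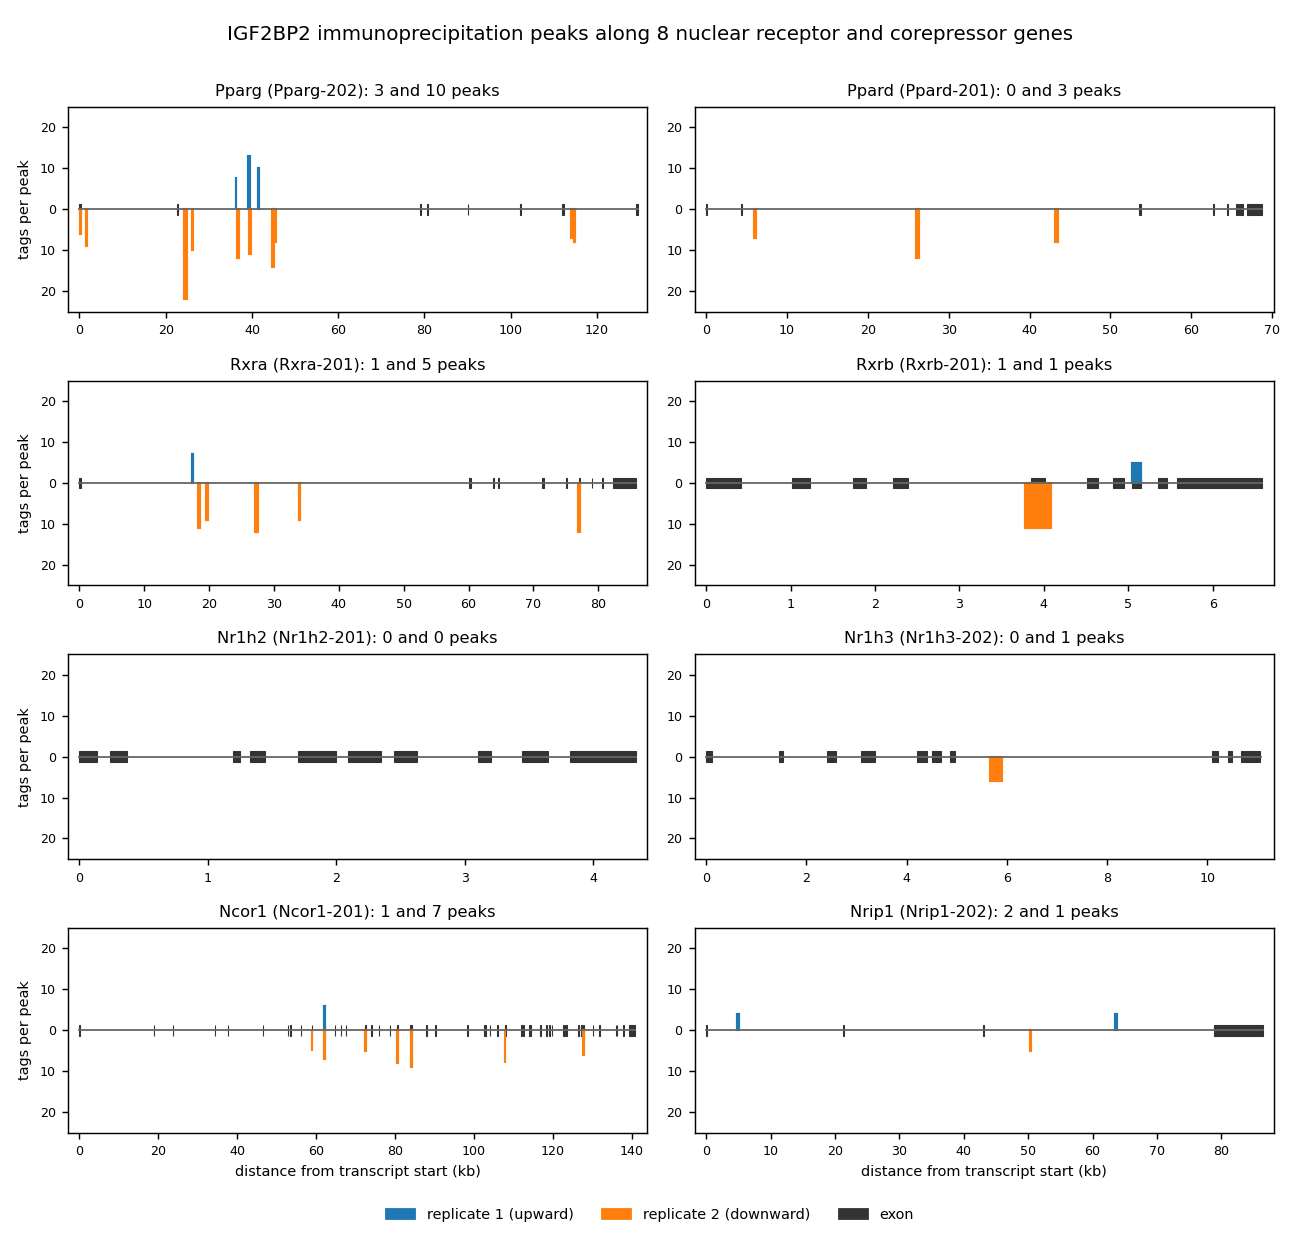
Peaks along the 8 genes. The horizontal axis is the distance in kb from the start of the named transcript, exons are dark boxes, and bar height is the tag count of each peak (linear), upward for replicate 1 and downward for replicate 2. Pparg, Ppard and Rxra carried peaks in long introns near the 5′ end. Each peak of Ncor1 touched an exon, some reaching into introns, with summits from about 59.1 to 128 kb.

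Pparg, on the plus strand of chromosome 6 (GRCm38, 115360951 to 115490399, ENSMUSG00000000440), had 31 tags in replicate 1 and 107 in replicate 2. Among genes in which any peak was found, 78.6% and 90.8% had fewer tags. The ratio between the libraries, 3.45, was above that of 86.0% of the genes with a peak in both. The replicate 1 peaks were all in intron 2 of Pparg-202, at 36.2, 39.2 and 41.5 kb from its start by their summits, with 8, 13 and 10 tags. They fell within a stretch of 5.49 kb. In replicate 2, 6 of the 10 peaks lay in the same intron, within 21.4 kb, at 24.4 kb (22 tags), 26.3 kb (10), 36.7 kb (12), 39.5 kb (11), 44.8 kb (14) and 45.5 kb (8). Thus 9 of 13 Pparg peaks stood in an intron of 56.1 kb that makes up 44.1% of the intron length. Only the peak of 22 tags touched an annotated exon there, one of Pparg-207, a transcript whose annotated end is incomplete.

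Within this intron 1 pair of peaks overlapped between the libraries. The pair, at 115400030 to 115400526 (13 tags) and 115400350 to 115400750 (11 tags) on chromosome 6, shared 177 nt, 35.6% of the replicate 1 peak and 44.1% of the replicate 2 peak, and the summits were 281 nt apart. The replicate 1 peak at 36.2 kb ended 236 nt before the replicate 2 peak at 36.7 kb began. The third replicate 1 peak, at 41.5 kb, had no replicate 2 peak within 1 kb, the nearest being 1648 nt away. Of the other Pparg peaks of replicate 2 in this intron, those at 44.8 and 45.5 kb were 2916 and 3741 nt from the nearest replicate 1 peak, and those at 26.3 and 24.4 kb 9759 and 11306 nt. Over all intronic peaks in genes with a peak in both libraries the median gap to the nearest peak of the other library was 1991 nt for replicate 1 and 3009 nt for replicate 2. Within 1 kb were 42.2% and 35.1% of them, and 3 of 6 and 4 of 17 of those of the 8 genes.

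**Figure D3:**
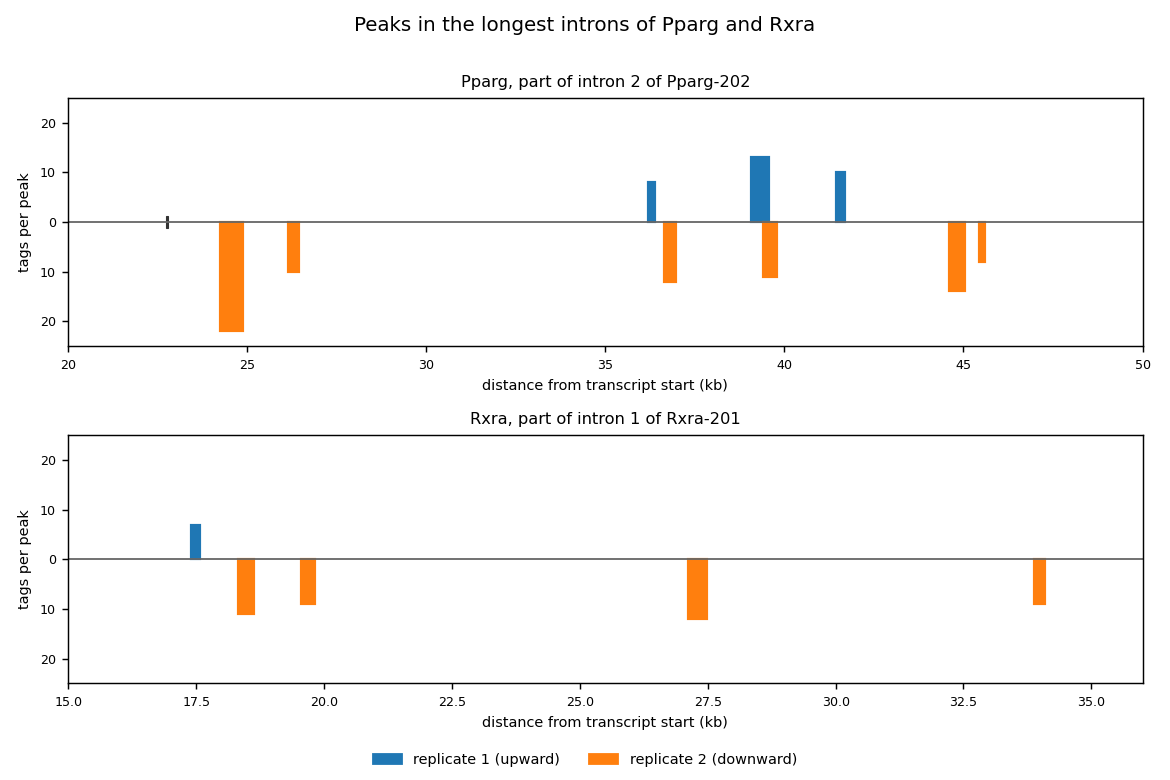
Parts of intron 2 of Pparg-202 and intron 1 of Rxra-201. The horizontal axis is the distance in kb from the transcript start, the width of each bar is the extent of the peak, and its height the tag count, upward for replicate 1 and downward for replicate 2 (dark tick, exon 2 of Pparg). The Pparg peaks near 39.2 and 39.5 kb overlap, and those of Rxra near 17.4 and 18.5 kb stand 749 nt apart.

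The peaks were set against the starts of the Pparg isoforms. Pparg-201, whose coding sequence of 505 codons is the longer PPARγ2 form, starts 61.1 kb downstream of Pparg-202, whose coding sequence has 475 codons and is the PPARγ1 form. Of the 13 Pparg peaks, 11 ended before the start of Pparg-201 (3 of 3 in replicate 1 and 8 of 10 in replicate 2), in sequence that a transcript begun there does not contain. The other two, with 7 and 8 tags in replicate 2, lay in intron 7 at 114 and 115 kb, in the part common to both. The only Pparg peak on an exon of Pparg-202 was in exon 1, in the 5′ UTR, at 115361078 to 115361370 with 6 tags in replicate 2. Its 3′ edge was the last base of that exon, and the deposited region share gave 51% of it to the 5′ UTR. It held 5 GGAC motifs in 293 nt, of which 67.6% were G or C. A GGAC was present in 68.3% of all windows of that length along the transcript and in 68.3% of the replicate 2 peaks of like length. A peak of 9 tags followed in intron 1, beginning 11 nt past the end of an annotated alternative first exon.

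Ppard, on chromosome 17 (plus strand, 28232700 to 28301474, ENSMUSG00000002250), had no peak in replicate 1 and 27 tags in 3 peaks in replicate 2. They had 7, 12 and 8 tags at 6.07, 26.0 and 43.2 kb from the start of Ppard-201. All lay in intron 2, which is 49.2 kb long and 75.1% of the intron length of the gene. None touched an exon, and the nearest exon was at least 1504 nt away. In both PPAR genes the second intron of the transcript used lies ahead of the coding exons, and it held 3 of 3 Ppard peaks and 9 of 13 Pparg peaks. Intronic tags, those of peaks mainly in introns, were set against the gene length outside all annotated exons. In replicate 2 they were 0.441 per kb for Ppard and 0.798 for Pparg. The median over 3330 protein-coding genes with an intronic peak was 0.245. In replicate 1 Pparg had 0.245 per kb, where the median was 0.174, and Ppard had no peak.

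Rxra lies on chromosome 2 (plus strand, 27676440 to 27762957, ENSMUSG00000015846). It had 7 tags in 1 peak in replicate 1 and 53 tags in 5 peaks in replicate 2. The ratio of 7.57 was above that of 98.3% of the genes with a peak in both libraries. Intron 1 of Rxra-201, 59.8 kb long and 74.0% of the intron length, held 5 of the 6 peaks. The replicate 1 peak (27694607 to 27694777) and the nearest replicate 2 peaks, with 11 and 9 tags, fell within 2.42 kb without overlap. The other intronic peaks of replicate 2 had 12 tags at 27.4 kb and 9 tags at 34.0 kb.

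The sixth Rxra peak, with 12 tags in replicate 2, ran from intron 6 through the whole of exon 7 and stopped at its last base. Exon 7 encodes residues 309 to 353 of 467, within the ligand-binding domain, and its sequence above holds no GGAC. A GGAC was present in 47.9% of windows of that length along the transcript and in 47.7% of replicate 2 peaks of like length. Intronic tags per kb of Rxra, counted as for the PPAR genes and so including the exon 7 peak, were 0.0864 in replicate 1 and 0.654 in replicate 2. They lay below and above the medians of 0.174 and 0.245 over the protein-coding genes with an intronic peak.

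Rxrb, a compact gene of 6.59 kb on chromosome 17 (plus strand, 34031812 to 34038399, ENSMUSG00000039656), had 1 peak in each library, of 5 and 11 tags. Both stood on coding exons, but on different ones. The replicate 1 peak was exon 8 of the transcript used from its first to its last base, 104 nt that encode residues 406 to 441 of 524 and hold 1 GGAC. The replicate 2 peak covered the 173 nt of exon 5 with part of the introns on each side, and its exonic part holds 2 GGAC. The peaks were 963 nt apart. Exonic tags, those of peaks not mainly intronic, were set against the merged exons of all annotated transcripts of the gene. Per kb of these they were 1.26 in replicate 1 and 2.77 in replicate 2. Both were under the medians over the protein-coding genes with an exonic peak, 2.20 and 3.05. The level on the transcript used alone was not computed.

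The LXR genes had 1 peak in all. Nr1h3 (chromosome 2, minus strand, 91184061 to 91202834, ENSMUSG00000002108) had 1 peak, of 6 tags in replicate 2, at 91189244 to 91189498 in intron 7 of the transcript used, 687 nt from the nearest exon. That intron is 5.13 kb long and 55.0% of the intron length. Nr1h2 (chromosome 7, minus strand, 44549616 to 44553951, ENSMUSG00000060601) had no peak in either list, sense or antisense. Its span, 4.33 kb, is the shortest of the 8. Its exons add up to 1999 nt in the transcript used, beside 2125 nt for Pparg.

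Ncor1, on chromosome 11 (minus strand, 62316426 to 62458541, ENSMUSG00000018501), had 6 tags in 1 peak in replicate 1 and 48 tags in 7 peaks in replicate 2. The ratio of 8.0 was above that of 98.7% of the genes with a peak in both libraries. All 8 peaks touched a coding exon of the transcript used, which has 46 exons in 141 kb with 132 kb of intron. By summit they stood from 59.1 kb to 128 kb, on exon 10 (5 tags), exon 11 (6 tags in replicate 1 and 7 in replicate 2), exon 15 (5), exon 19 (8), exon 20 (9), exon 28 (8) and exon 40 (6). The tags were spread, with no peak over 9. The longest intron, 18.6 kb, held none. Exonic tags per kb, counted as for Rxrb, were 0.468 in replicate 1 and 2.58 in replicate 2, below the medians of 2.20 and 3.05. That count leaves out 15 of the 48 tags of replicate 2, from peaks that touch an exon but are mainly intronic. Its length is that of the merged exons of all annotated transcripts. A level with all tags, or on the transcript used alone, was not computed, so the place beside the median holds for this definition only.

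Exon 11 of Ncor1 was the only exonic position that a peak covered in both libraries, and the peaks there differed in shape. In replicate 1 the peak was the exon itself, 91 nt from edge to edge, encoding residues 362 to 392 of 2454. In replicate 2 the peak covered the first 45 nt of the exon and ran back into intron 10, at 62395184 to 62395382, so that 77% of it was intronic by the deposited shares. The shared 45 nt were 49.5% of the replicate 1 peak and 22.6% of the replicate 2 peak, and the summits were 44 nt apart. The exon holds no GGAC. A GGAC was present in 24.7% of all windows of 91 nt along the transcript and in 39.3% of replicate 1 peaks of like length. 

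Of the 12 member peaks that touch an exon, 8 had at least 1 edge at an exon edge, to the base. These were 2 of 2 in replicate 1, with both edges each, and 6 of 10 in replicate 2, with 1 edge each. Among all sense peaks assigned in part to an exon, 60.3% and 60.4% had such an edge, and 23.3% and 23.5% had both. In Ncor1 the edge was that at the 3′ end of exons 10, 15, 20 and 40 in replicate 2, and the peaks at exons 11, 19 and 28 in that library crossed into introns. GGAC was present in 4 of the 7 member peaks that lie within 1 exon (1 of 2 and 3 of 5), where all such peaks gave 51.8% in replicate 1 and 51.5% in replicate 2. The motif was sought on the RNA strand alone.

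Nrip1, whose coding sequence lies in its last exon, had no peak on an exon. It lies on chromosome 16 (minus strand, 76287400 to 76373827, ENSMUSG00000048490) and had 8 tags in 2 peaks in replicate 1 and 5 tags in 1 peak in replicate 2, a ratio of 0.625. It was the only one of the 5 genes found in both libraries with fewer tags in replicate 2. All 3 peaks lay in introns, in replicate 1 at 4.93 kb (intron 1, 4 tags) and 63.6 kb (intron 3, 4 tags) and in replicate 2 at 50.4 kb (intron 3, 5 tags). The intron 3 peaks were 13033 nt apart. No peak was found in the last exon, although the exons of the transcript used add up to 7868 nt, second to those of Ncor1 (9037 nt) among the 8. With 4 and 5 tags, these peaks were among the weakest: 5.52% and 19.8% of the peaks of their libraries had fewer tags.

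Likeness to other genes was measured over the 2 libraries by the distance in 4 values, log2(tags + 1) and the intronic share of tags in each library. The genes nearest to Pparg were Fgd4 (distance 0.462, 38 and 85 tags), Fars2 (0.475, 28 and 78) and Apobec1 (0.492, 40 and 135), with all replicate 1 tags intronic in each. The nearest to Ncor1 were Uqcrc1 (0.125, 6 and 48 tags), Limk1 (0.179, 6 and 44) and Slc17a5 (0.188, 6 and 48). Nrip1 had the same 4 values as Cmc1, Fbxo34 and March3.

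The rest of the pathway was described with 5 lists of 124 genes, of which 59 had a peak in both libraries. Among 38 other nuclear receptor genes 2 did (5.26%, under the 17.0% of all protein-coding genes), Esrra (8 and 13 tags) and Rara (10 and 6). The other receptors with a peak had it in 1 library only, such as Rarg (12 tags in replicate 2) and Nr1d2 (10 in replicate 1), and Ppara and Rxrg had none. Summed over all 38 genes, the peaks held 34 and 58 tags, beside 31 and 107 for Pparg alone. Neither Esrra nor Rara had peaks that overlapped between the libraries.

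Genes of the coregulators follow. Among 17 other corepressor complex genes 11 had a peak in both libraries (64.7%). They include the NCoR complex subunit genes Tbl1x (14 and 70 tags, all intronic) and Tbl1xr1 (21 and 33), and the corepressor gene Ctbp1 (30 and 30). Hdac3, the deacetylase that NCoR1 carries, had 8 tags in replicate 2 only, and Gps2, another subunit, had none. Among 19 coactivator genes 14 did (73.7%), led by Kmt2d (319 and 736 tags), Med13l (328 and 612), Ncoa3 (53 and 195) and the acetyltransferase gene Crebbp (51 and 101).

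Of 30 genes known as macrophage targets of PPARG or LXR, 20 had a peak in both libraries (66.7%), and 17 an overlapping one. Summed over the list, the peaks held 2649 and 5379 tags. Mrc1, which encodes the mannose receptor, had 1030 and 1880 tags, the lipase gene Lpl 203 and 916, and the cholesterol exporter genes Abcg1 and Abca1 had 311 and 520, and 286 and 429. The fatty acid transporter gene Cd36 had 180 and 364. Of 20 upstream inducers and lineage factors 12 did (60.0%). They include the growth factor receptor gene Csf1r, given above, the transcription factor gene Mitf (791 and 1555 tags, all intronic) and the receptor genes Csf2rb (198 and 280) and Csf2ra (157 and 268). Stat6, which carries the interleukin-4 signal, had 52 and 128 tags, and Il4ra, a chain of its receptor, 8 and 31. The lists were chosen with results of these data known and expression was not measured, so they describe where peaks lie and not which genes are preferred.

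**Figure D4:**
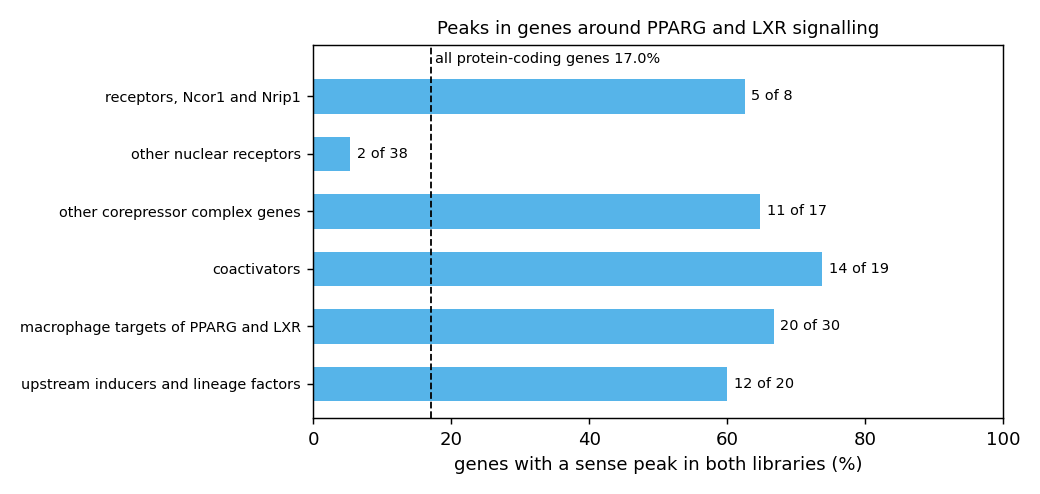
Percentage of genes in each list with a sense peak in both libraries (bars, with counts), and the percentage over all protein-coding genes (dashed line, 17.0%). Other nuclear receptors lie under the line with 2 of 38, and the other lists above it.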

How the data were processed

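RNA from IGF2BP2 immunoprecipitates of mouse macrophages was sequenced in 2 libraries, each with 1 deposited peak list. The submitters' processing notes name TopHat2, bcl2fastq and the build GRCm38. How peaks were called, at what threshold, and whether inputs entered is not given in the sources used here. The values come from the authors: per the file headers they are a tag count for every peak, whole and without normalization, and a maximum height, which is a coverage signal. Deposited starts lay 1 base before an annotated exon start in 3949 and 5646 sense peaks and at one in 27 and 40, and ends lay at an exon end in 3987 and 5676. Starts and summits were therefore read as counted from 0 and raised by 1, and lengths are 1 less than deposited. This was noticed after seeing the data.

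Gene identifiers without version matched GENCODE M21 for 99.7% and 99.8% of the peaks that carried one. Chromosomal genes of the protein-coding class were the background. Overlaps, counts and exact intervals were computed in Python 3.11.15 (pandas 2.3.3, scipy 1.17.1). The overlaps alone were checked on simulated peaks. No test between groups was made: the 2 libraries are 1 group. Members, lists and settings were chosen with earlier results of these data known. By rule, the text names the 8 genes, up to 4 genes per list with a peak in both libraries by tag rank, and the 3 nearest genes to Pparg, Ncor1 and Nrip1. Other names were chosen after their values were seen. One gene that the rule names is not reported here.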

Additional observations from a re-analysis of the deposited data

Results flagged for a closer look

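Peaks outside the counts above were sought antisense to the 8 genes and, where the lists named no gene, within 5 kb of their ends. Those with more than 3 tags, the lowest count the lists hold, were 3. An antisense peak of 4 tags lay inside Ncor1 in replicate 1. On the strand of Rxra and downstream of its annotated end, a peak of 4 tags stood 1472 nt away in replicate 1 and another of 4 tags 2492 nt away in replicate 2, without overlap. Peaks of 3 tags stood 1855 nt downstream of Pparg and 1930 nt upstream of Ppard, both in replicate 1. No control value exists for any of them here.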

How the results depend on the processing

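The count of 5 genes with a peak in both libraries fell to 1 with the stronger 50% of each list, to 3 with peaks of at least 6 tags and to 2 with exonic peaks only, and was 5 with antisense peaks counted and 5 to 7 in 1 library alone. The 2 overlapping pairs fell to 0 with overlap of at least 50% of both peaks, and to 0 when each summit had to lie in the other peak. The intronic share ranged from 66.7% to 80.6% over its 5 alternatives. The mean of 19.6 tags per gene ranged from 7.12 to 32.1 in 1 library alone, and was 72.8 as a rate scaled to the library's nuclear tags, which is another unit. The count of 4 of 7 peaks with GGAC was 6 with peaks extended by 50 nt and 3 with TGGAC. These are a wider and a stricter search by construction. Reading deposited starts as 1-based, tried after seeing the data, left 1 of 1 peaks within 1 exon with GGAC in place of 4 of 7, because starts then fall 1 base outside the exon. The 5 lowered counts of genes and pairs come from settings that admit fewer peaks or pairs by construction. No paired analysis was possible because the inputs were not analysed here and no test compares groups. Most member peaks have under 10 tags, and library sizes are unknown, so what depth limits could not be measured.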
